A study of Homo sapiens with 8 samples.

Results

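Interferon-stimulated genes were examined in U87, a cell line from a human glioblastoma, after knock-down of RND3, a small GTP-binding protein. The list held 41 genes, chosen by name as classical targets of interferon. On the arrays, 40 of them had a probe that could be named through its RefSeq accession, out of 19483 genes so named, and IFI27 had none. Each gene was read from its brightest probe at 24 h. Cells received either an siRNA that targets RND3 (siRND3) or a non-silencing one (siControl), both carried by the same lipid reagent. There were 3 siControl and 3 siRND3 arrays at 24 h, and 1 array of each at 48 h. Of the pair of RND3 oligos named in the methods, the one used for each array is not given, nor is it stated that replicates were transfected separately, so p-values measure the spread between these samples, which may be technical. No array of untransfected or mock-transfected cells was analysed here. The data therefore compare one siRNA with another, and a response to transfection shared by both groups could not be measured.

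Cells sense foreign RNA, including some short double-stranded RNAs, through cytoplasmic and endosomal receptors that induce interferons. Secreted type I interferon binds its receptor and activates ISGF3, a complex that includes STAT2 and IRF9 and binds the interferon-stimulated response element (ISRE) in the promoters of many genes. Interferon gamma acts instead through the gamma-activated site (GAS). The induced proteins bind viral RNA, stop translation, restrict entry and raise antigen presentation, and some feed back on the pathway. Because siRNA is itself a short double-stranded RNA, these genes are commonly read as a check on knock-down experiments.

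RefSeq promoters (GRCh38.p14, a window of fixed length around each start) were found for 33 of the 41 genes. The ISRE core (GAAA, any 2 bases and GAAA), read on both strands, was present in 24 of the 33 (72.73%), against 1195 of all 27305 genes with a promoter (4.376%). On the sense strand alone it was present in 42.42% of the 33, against 2.091% of all genes. The GAS core TTCNNNGAA, which reads the same on both strands, was present in 36.36% of the 33 and in 9.376% of all genes. Overlapping matches were each counted, and a match is a string of letters, not a measured binding site. The 160 bases before the start are shown for genes that the results below turn on, with the ISRE core in capitals for ISG15 (chr1:1013337-1013496, plus strand), IFIT1 (chr10:89392463-89392622, plus strand), IFIT3 (chr10:89327837-89327996, plus strand) and IFI44 (chr1:78649629-78649788, plus strand), and the GAS core in capitals for IRF9 (chr14:24161105-24161264, plus strand). A core on the opposite strand appears as its reverse complement.
ISG15: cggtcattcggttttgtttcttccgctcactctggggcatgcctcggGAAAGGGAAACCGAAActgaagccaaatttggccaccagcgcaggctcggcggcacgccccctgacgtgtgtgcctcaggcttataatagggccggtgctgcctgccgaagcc
IFIT1: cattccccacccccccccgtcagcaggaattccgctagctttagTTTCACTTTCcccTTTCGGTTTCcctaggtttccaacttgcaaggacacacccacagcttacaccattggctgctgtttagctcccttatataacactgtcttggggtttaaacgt
IFIT3: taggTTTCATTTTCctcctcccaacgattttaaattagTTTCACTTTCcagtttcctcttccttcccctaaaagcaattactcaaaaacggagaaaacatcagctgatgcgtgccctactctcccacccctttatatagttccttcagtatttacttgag
IFI44: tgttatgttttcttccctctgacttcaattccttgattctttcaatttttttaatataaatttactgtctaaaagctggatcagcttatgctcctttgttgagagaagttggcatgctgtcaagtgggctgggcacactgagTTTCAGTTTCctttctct
IRF9: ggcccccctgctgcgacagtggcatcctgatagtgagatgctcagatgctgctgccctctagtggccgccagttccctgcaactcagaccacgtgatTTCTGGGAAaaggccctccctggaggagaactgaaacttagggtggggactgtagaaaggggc

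In ISG15 and IFIT1 a pair of cores lay within 160 bases of the start, and in ISG15 the cores overlapped. IFIT3 also held a pair, IFI44 held 1 core close to its start, and IRF9 held a GAS core but no ISRE core. IFIT2, IRF7, OAS2, OASL and USP18, which are described below, were among the genes without an entry.

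**Figure D1:**
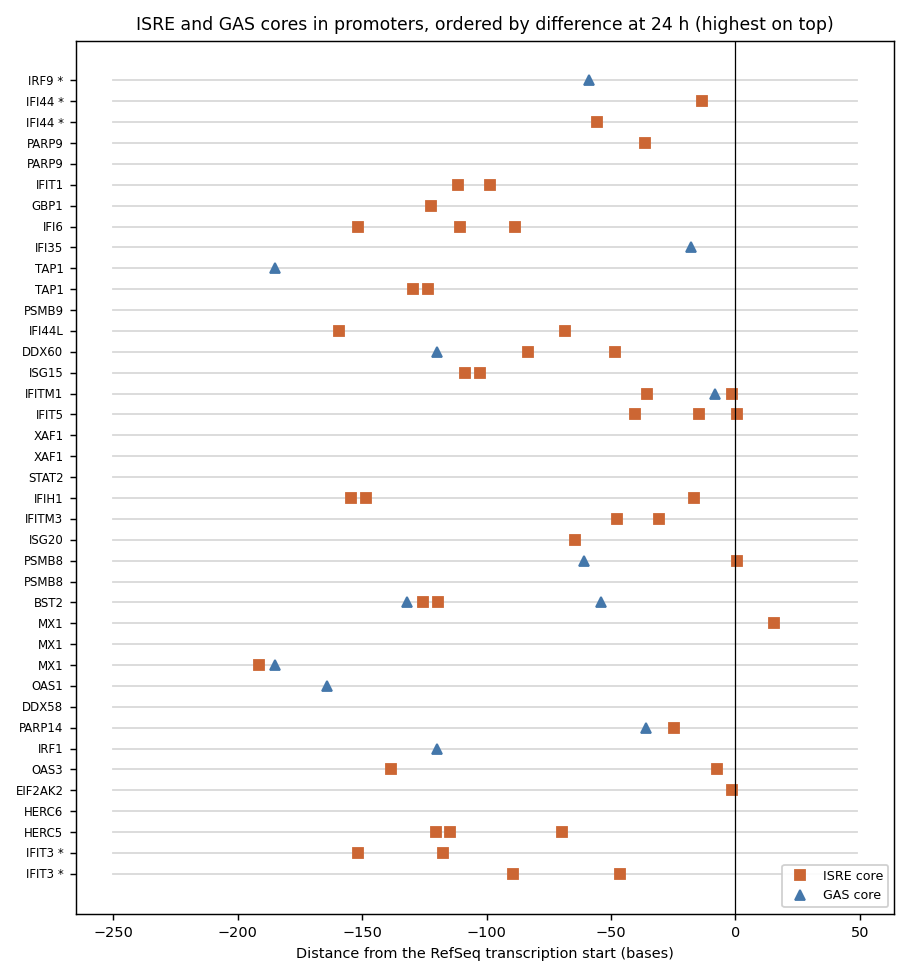
ISRE cores (squares) and GAS cores (triangles) by distance in bases from the RefSeq start, for tested genes with a promoter entry. Each line is 1 listed start, so genes with several starts have several lines, ordered by the difference at 24 h with the highest on top, and asterisks mark genes with limma adjusted p under 0.05. Cores were found from top to bottom of the order.

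All 8 arrays came from 1 slide and 1 scan, with the siRND3 arrays in row 1 and the siControl arrays in row 2, so row cannot be told apart from treatment. Values are log2 intensities normalised by quantiles over the 8 arrays, and the number of arrays limits their precision. RND3 checked the labels. It read 11.88, 11.91 and 11.90 on the siControl arrays at 24 h and 10.12, 10.18 and 10.42 on the siRND3 arrays, a fall by 1.66 (SE 0.10, limma adjusted p 0.000345) with no overlap. At 48 h it read 11.48 in siControl and 9.84 in siRND3. Of the glioma markers, VIM, NES, CD44 and FN1 were well above background on all 8 arrays, OLIG2 on 7 and S100B on 1, while GFAP and SOX2 were on none. At 24 h NES rose by 0.41 and CD44 and OLIG2 fell by 0.58 and 1.40 in siRND3 cells, and the part of these shifts in the results below was not tested. The scanner's mark was lenient, since 7 of 9 markers of leukocytes and plasmacytoid dendritic cells also carried it on all 8 arrays. None of those 7 passed the test at 24 h, and CLEC4C and IL3RA were well above background on no array.

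Most interferon-stimulated genes were well above background by the scanner's lenient mark, and those that passed at 24 h moved in both directions. Some were dim, with siControl means at 24 h of 4.46 for BST2, 5.68 for MX1 and 5.77 for OAS1. Of the 40 genes with a probe, 39 were well above background on all 8 arrays and were tested. RSAD2, an interferon-induced enzyme that blocks viral RNA synthesis, was on all 8 arrays not well above background. In siRND3 cells 5 of the 39 genes were up-regulated and 3 were down-regulated at limma adjusted p under 0.05, which is 20.5% of the list. Over all 14797 genes tested 14.8% passed, 6.51% higher and 8.27% lower. The median difference of the 39 genes was 0.02 on the log2 scale (range -0.55 to 0.71), against 0.04 over all genes, with 22 above 0 and 17 below. At an unadjusted p under 0.05 there were 16 of the 39 genes, against 4859 of all 14797. The siRND3 arrays lay wholly above the siControl arrays for 12 genes and wholly below for 7, where 41.1% of all genes had groups that did not overlap. Leaving out any 1 of the 3 siControl arrays left IFIT2 and IRF9 as the 2 genes that passed, and leaving out siRND3 replicate 2 left 4. In a bulk sample fewer responding cells and less RNA per cell cannot be told apart.

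**Figure D2:**
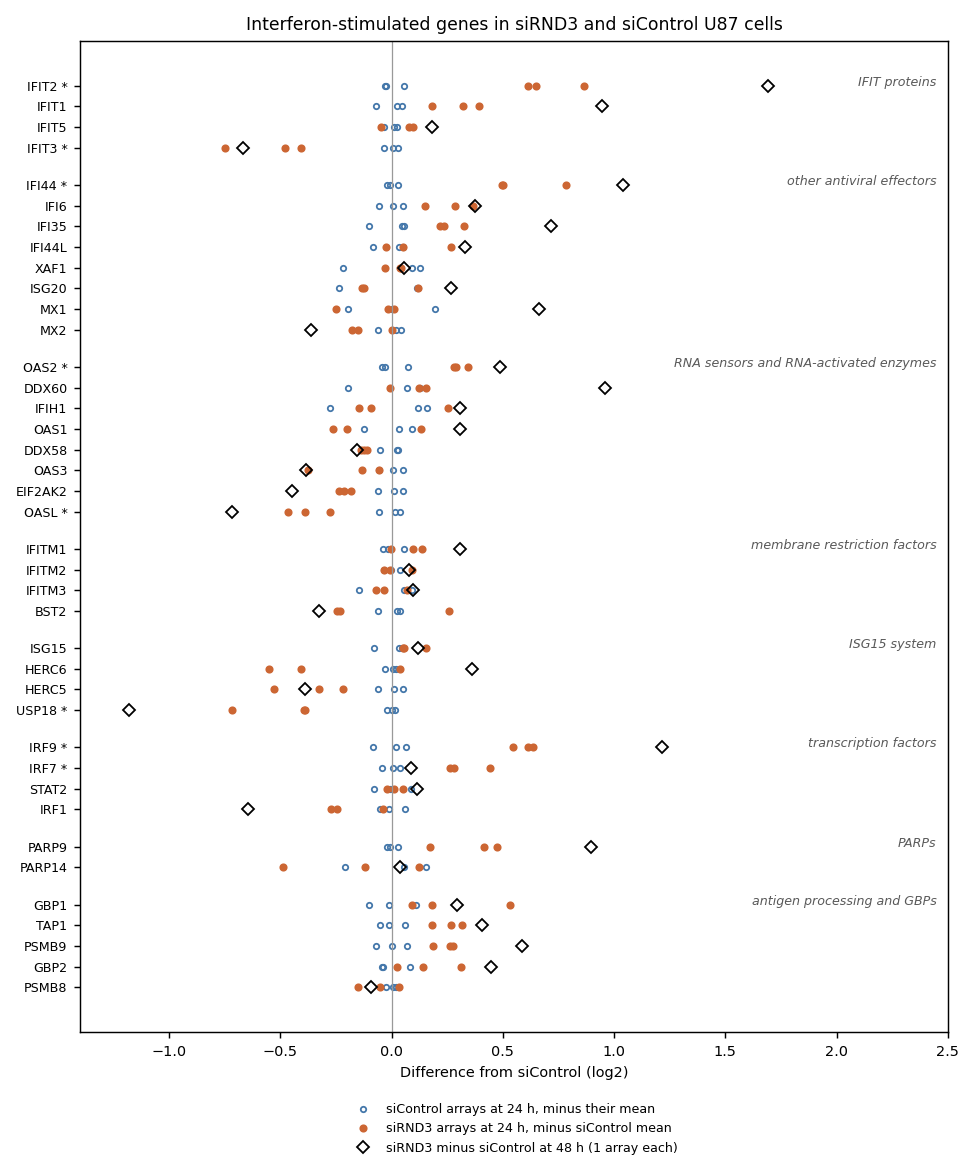
Difference from siControl on the log2 scale for the 39 genes tested, grouped by role. Open circles are the 3 siControl arrays and filled circles the 3 siRND3 arrays at 24 h, each minus the siControl mean, diamonds are the single arrays at 48 h (siRND3 minus siControl), and asterisks mark limma adjusted p under 0.05 at 24 h. Differences at 24 h lie on both sides of 0 within every group, and the diamonds of IFIT2, IRF9 and IFI44 lie past 1.

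The IFIT proteins, which bind RNA that lacks the marks of host messages and hinder its translation, moved in both directions. IFIT2 read 7.65, 7.73 and 7.65 on the siControl arrays and 8.29, 8.33 and 8.54 on the siRND3 arrays. All 3 siRND3 arrays were above all 3 controls, and IFIT2 rose by 0.71 (SE 0.09, adjusted p 0.00560), or 1.64-fold. Its dimmer second probe differed by 0.22 and did not pass (adjusted p 0.266), and the mean of both probes differed by 0.47. IFIT3, which binds and stabilises IFIT1, read 8.90, 8.84 and 8.88 in siControl and 8.12, 8.40 and 8.47 in siRND3. The siRND3 arrays were all lower and replicate 1 was the lowest, and IFIT3 fell by 0.55 (SE 0.10, adjusted p 0.0225), to 68.5% of control. IFIT5 differed by 0.04 with overlapping groups (adjusted p 0.766), and IFIT1 is given below with the marker genes.

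The 4 transcription factors contributed 2 of the 5 increases, where 6.51% of all genes tested were higher. IRF9, the subunit of ISGF3 that recognises the ISRE, read 7.72, 7.62 and 7.76 in siControl and 8.25, 8.31 and 8.34 in siRND3. The groups were well apart, with the siRND3 arrays close together, and IRF9 rose by 0.60 (SE 0.08, adjusted p 0.00526), or 1.51-fold. IRF7, which drives interferon alpha genes, read 9.29, 9.24 and 9.32 in siControl and 9.56, 9.72 and 9.55 in siRND3. Its groups did not overlap, and it rose by 0.33 (SE 0.08, adjusted p 0.0467), but it lost the threshold under 10 of 17 alternatives, among them each of the 6 arrays left out. STAT2, the partner of IRF9, read 12.35, 12.28 and 12.44 in siControl and 12.41, 12.37 and 12.34 in siRND3. Its groups overlapped, with a difference of 0.01 (95% interval -0.17 to 0.20, adjusted p 0.931). IRF1, an early target of interferon gamma, differed by -0.18 (adjusted p 0.236).

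Among sensors of RNA and RNA-activated enzymes, 1 of 8 genes rose and 1 fell (25%), where 14.8% of all genes passed. OAS2, a synthase switched on by double-stranded RNA whose product activates RNase L, read 7.02, 6.90 and 6.92 in siControl and 7.23, 7.29 and 7.24 in siRND3. The siRND3 arrays were higher by a small step, 0.30 (SE 0.07, adjusted p 0.0423). Its other 2 probes differed by 0.18 and 0.04 without passing, and OAS2 lost the threshold under 9 of 17 alternatives, the mean of its probes and each of the 6 arrays left out among them. OASL, a relative without synthase activity that promotes RIG-I signalling, read 9.89, 9.97 and 9.99 in siControl and 9.56, 9.67 and 9.49 in siRND3. All siRND3 arrays were lower, and OASL fell by 0.38 (SE 0.08, adjusted p 0.0316). The other 6 (IFIH1, DDX58, DDX60, OAS1, OAS3 and EIF2AK2) differed by between -0.21 and 0.09 and did not pass. DDX58, named RIGI in RefSeq and encoding RIG-I, differed by -0.12 on its brightest probe and by -0.44 on its second probe (adjusted p 0.0540).

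In the ISG15 system, which attaches a ubiquitin-like protein to other proteins, 1 of 4 genes fell and none rose. Over all genes tested 8.27% were lower. USP18, which removes ISG15 and dampens signalling at the type I receptor, read 10.21, 10.19 and 10.23 in siControl and 9.49, 9.82 and 9.82 in siRND3. The siControl arrays were nearly equal and all siRND3 arrays lay below them, and USP18 fell by 0.50 (SE 0.11, adjusted p 0.0319), to 70.7% of control. HERC5, the main ligase for ISG15, differed by -0.36 (adjusted p 0.0671) and HERC6 by -0.31 (adjusted p 0.246).

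Of the other antiviral effectors, 1 of the 8 tested passed (12.5%), where 14.8% of all genes did. IFI44, a gene induced strongly by type I interferon, read 9.87, 9.82 and 9.83 in siControl and 10.33, 10.34 and 10.62 in siRND3. All siRND3 arrays were higher, and IFI44 rose by 0.59 (SE 0.10, adjusted p 0.0139), or 1.51-fold. The effectors that did not pass (IFI6, IFI35, IFI44L, ISG20, MX1, MX2 and XAF1) differed by between -0.11 and 0.27. None of the 4 membrane factors that restrict viral entry or release (IFITM1, IFITM2, IFITM3 and BST2), the PARPs (PARP9 and PARP14) or the 5 genes of antigen processing and guanylate-binding proteins (PSMB8, PSMB9, TAP1, GBP1 and GBP2) passed. PARP9 came nearest, with a difference of 0.35 and groups that did not overlap (adjusted p 0.0642).

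**Figure D3:**
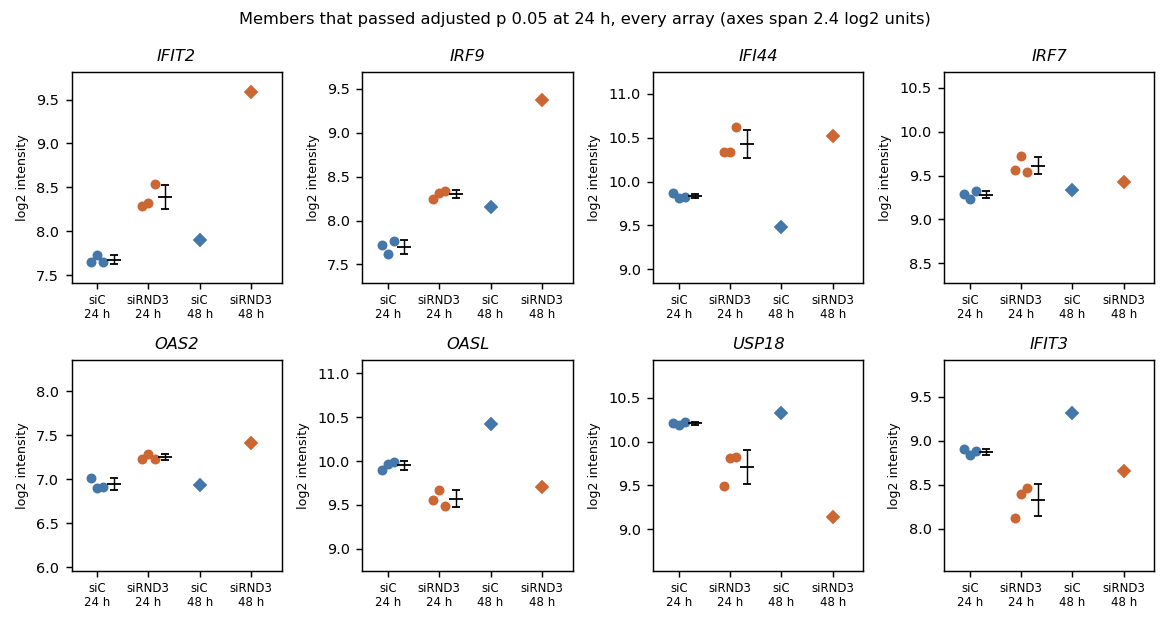
Log2 intensity on every array for the 8 genes with limma adjusted p under 0.05 at 24 h (siC is siControl). Circles are arrays at 24 h with their mean and SD (n = 3) beside them, diamonds are single arrays at 48 h, and every axis spans the same range of log2 units. IFIT2, IRF9, IFI44, IRF7 and OAS2 are higher in siRND3 at 24 h, and OASL, USP18 and IFIT3 lower. Each gene keeps its sign at 48 h, but IRF7 differs there by 0.09 only.

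To ask whether RND3 siRNA gave a stronger interferon response than control siRNA, 7 genes commonly used as markers of such a response were read whatever they did, and none passed at 24 h. ISG15 read 11.55, 11.67 and 11.66 in siControl and 11.68, 11.78 and 11.68 in siRND3. The siRND3 arrays were higher by a margin smaller than the spread within either group, and the difference was 0.09 (95% interval -0.10 to 0.27, adjusted p 0.510). IFIT1 read 8.19, 8.09 and 8.21 in siControl and 8.35, 8.48 and 8.56 in siRND3. Its groups did not overlap, but the difference of 0.30 (95% interval 0.10 to 0.50) did not pass after adjustment (adjusted p 0.0710).

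MX1, a GTPase that traps viral particles, read 5.48, 5.68 and 5.88 in siControl and 5.43, 5.66 and 5.69 in siRND3. OAS1 read 5.81, 5.65 and 5.86 in siControl and 5.51, 5.57 and 5.91 in siRND3. IFIH1, which encodes the sensor MDA5, read 6.66, 6.23 and 6.62 in siControl and 6.36, 6.41 and 6.76 in siRND3. All 3 genes had overlapping groups, with differences of -0.08 for MX1 (95% interval -0.39 to 0.22), -0.11 for OAS1 (95% interval -0.41 to 0.19) and 0.01 for IFIH1 (95% interval -0.38 to 0.39). EIF2AK2, the kinase PKR that stops translation on binding double-stranded RNA, read 10.91, 10.95 and 10.84 in siControl and 10.66, 10.71 and 10.68 in siRND3. Here all siRND3 arrays were lower, by -0.21 (95% interval -0.38 to -0.04), which did not pass after adjustment (adjusted p 0.106). The second probe of EIF2AK2 differed by -0.27 and did not pass either (adjusted p 0.0829). EIF2AK2 and IFIT1 each passed under 1 of 17 alternatives, with all 8 arrays in the fit. The signs for MX1, IFIH1 and STAT2 changed under some alternatives.

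**Figure D4:**
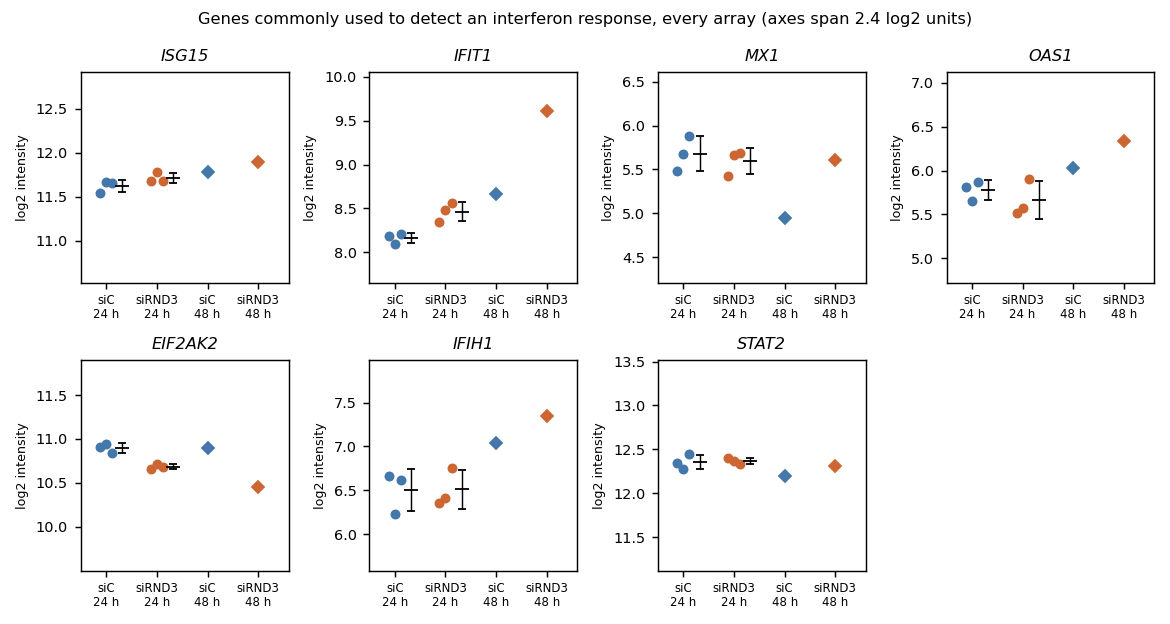
Log2 intensity on every array for 7 genes used to detect an interferon response (siC is siControl), with symbols and axes as in the plot of the 8 changed genes. At 24 h the groups overlap for MX1, OAS1, IFIH1 and STAT2, and IFIT1 is higher in siRND3 at 48 h by 0.95.

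At 48 h differences were larger than at 24 h, over all genes as well as for the 39 genes, where most were upwards. The median absolute difference was 0.18 at 24 h and 0.37 at 48 h for the 39 genes, and 0.16 and 0.32 over all genes. Values at 24 h are means of 3 arrays and those at 48 h single arrays. With 1 array per treatment there was no test, and called means at least 1.5-fold apart. By that measure 9 of the 39 genes were higher in siRND3 and 4 were lower, where 14.3% of all genes were higher and 13.4% lower. The median difference was 0.26, against 0.06 over all genes, with 28 genes above 0 and 11 below. This median depended on the processing, and the cause was not tested. It was 0.11 after normexp background correction and 0.14 in the authors' own log2 values.

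At 48 h IFIT2 read 7.90 in siControl and 9.59 in siRND3, a difference of 1.69, or 3.23-fold, and its second probe differed by 1.72. IRF9 read 8.16 and 9.37 in the same order, a difference of 1.21, and IFI44 read 9.48 and 10.52, a difference of 1.04. These 3 genes had also risen at 24 h. DDX60 differed by 0.96, IFIT1 by 0.95, PARP9 by 0.90, IFI35 by 0.72, MX1 by 0.66 and PSMB9 by 0.59. For MX1 the siControl array at 48 h, at 4.95, was lower than every array at 24 h, and the siRND3 array, at 5.61, was within their range. The siControl array of IFI44 at 48 h was also below every array at 24 h. Its siRND3 array at 48 h lay within the range of siRND3 at 24 h. For DDX60 the siControl array at 48 h, at 6.43, was below every array at 24 h, and the siRND3 array, at 7.39, was above them. The 4 lower genes were USP18 at -1.18, OASL at -0.72, IFIT3 at -0.67 and IRF1 at -0.64, of which the first 3 had also fallen at 24 h. ISG15 differed by 0.12, OAS1 by 0.31, IFIH1 by 0.31 and EIF2AK2 by -0.45.

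**Figure D5:**
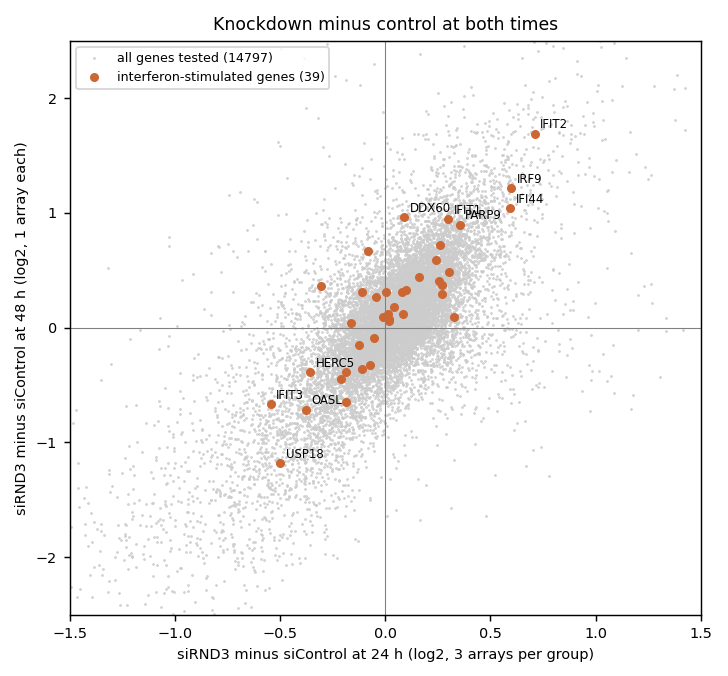
Difference between siRND3 and siControl on the log2 scale at 24 h (horizontal, 3 arrays per group) and at 48 h (vertical, 1 array each) for the 39 genes tested (orange) and all 14797 genes tested (grey, of which 168 lie outside the axes). IFIT2, IRF9 and IFI44 stand at the upper right and USP18, OASL and IFIT3 at the lower left.

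Whether the effect of knock-down grew with time was tested with all 8 arrays in a model with 4 groups, where the spread at 48 h was taken to be that at 24 h. Of the 39 genes 1 passed, IFIT2, against 3.67% of all genes (1.4% with a more positive effect at 48 h and 2.27% with a more negative one). The effect on IFIT2 was larger at 48 h by 0.98 (SE 0.18, limma adjusted p 0.0490), and its second probe gave 1.5 (adjusted p 0.0339). The call on the brightest probe was lost under 8 of 14 alternatives, among them leaving out any siControl array, siRND3 replicate 1 or siRND3 replicate 2.

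Change with time was then read within each treatment in the same model. In siControl cells 1 of the 39 genes rose from 24 h to 48 h and none fell, against 4.64% of all genes (1.09% higher and 3.55% lower). It was IRF1, which read 8.28, 8.39 and 8.32 at 24 h and 9.03 at 48 h. The array at 48 h was above all 3, a rise of 0.70 (SE 0.13, limma adjusted p 0.0405), but the call was lost under 7 of 14 alternatives, among them leaving out any siControl array, siRND3 replicate 1 or siRND3 replicate 3. The median change over the 39 genes was 0.17, against -0.01 over all genes tested.

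In siRND3 cells 9 of the 39 genes rose with time and none fell, where 11.3% of all genes passed, 3.2% higher and 8.12% lower. IFIT2 rose by 1.2, to 9.59 at 48 h, and IFIT1 read 8.35, 8.48 and 8.56 at 24 h and 9.62 at 48 h, a rise of 1.15. IRF9 rose by 1.07. PARP9, a partner of the ubiquitin ligase DTX3L in interferon signalling and DNA repair, read 8.12, 8.36 and 8.42 at 24 h and 9.12 at 48 h, a rise of 0.83. For all 4 genes the array at 48 h was above every siRND3 array at 24 h. GBP2, a guanylate-binding protein, read 7.34, 7.63 and 7.45 and then 8.22, a rise of 0.74 that lost the threshold without any 1 siControl array or siRND3 replicate 3. TAP1, which carries peptides to class I molecules, read 11.28, 11.41 and 11.36 and then 12.03, a rise of 0.68. IFITM1, IFI6 and PSMB9 rose by 0.64, 0.57 and 0.51. Over the 39 genes the median change in siRND3 cells was 0.31, against 0.03 over all genes tested. In siControl cells the same 9 genes, picked because they passed in siRND3 cells, also rose, by 0.17 for PSMB9 to 0.53 for TAP1. Passing in 1 treatment only is not itself a difference in change with time. The difference between treatments in this change is the quantity tested above, where 1 gene passed. The siRND3 arrays at 24 h enter both this comparison and that with siControl.

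Other genes of the pathway were read from a list of 112, of which 108 had a probe and 85 were tested. At 24 h 8 rose and 9 fell, 17 in all, where 14.8% of all genes passed. One of the increases was IFNA2, which met the filter on signal only in siRND3, the group where it was higher. The interferons themselves were mostly not measurable. Of 17 with a probe 4 were tested, and IFNB1, the interferon that most cells release first, was on all 8 arrays not well above background. IFNA2 read 1.28, 1.30 and 1.47 in siControl and 2.57, 3.77 and 3.23 in siRND3, well above background on the 3 siRND3 arrays only and at neither array at 48 h. With siControl values raised to the dimmest signals that the scanner marked as above background, IFNA2 was 1.71-fold higher at 24 h. That figure is no lower bound, since IFNA21 read 2.36, 2.93 and 3.24 in siRND3 without the mark. It also holds for the reported processing only. Under 16 alternatives the IFNA2 difference lay between 0.33 and 2.15 on the log2 scale. IFNA2 entered the test only through the siRND3 arrays, so its call is a description and carries no weight as a test.

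Among receptors, IL10RB, a chain shared by the receptors of interferon lambda and interleukin 10, fell by 0.95 (SE 0.09, adjusted p 0.00212), from 10.19, 9.97 and 10.18 in siControl to 9.07, 9.16 and 9.25 in siRND3. TICAM1, the adaptor of TLR3, read 12.13, 12.27 and 12.09 in siControl and 11.26, 11.08 and 11.14 in siRND3, a fall by 1.00 (SE 0.09, adjusted p 0.00121), and MYD88, which serves most other toll-like receptors, fell by 0.81 (SE 0.08, adjusted p 0.00215). Both had groups far apart. TLR3, the endosomal receptor for double-stranded RNA, rose by 0.48 (adjusted p 0.0199), TRAF6, a signalling ligase, by 0.44 (adjusted p 0.0246), and DHX58, a regulator of RIG-I and MDA5, by 0.43 (adjusted p 0.0242).

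Of the further interferon-induced genes, 2 of 46 rose and 4 fell. That is 13.0% of this set, where 14.8% of all genes passed. HELZ2 rose by 0.47 (0.22 over the mean of its probes, which did not pass) and RNF213 by 0.45 (a call lost under 10 of 17 alternatives, among them the mean of its probes and each of the 6 arrays left out), while TAP2, the partner of TAP1 in peptide transport, fell by 0.77 (adjusted p 0.00208) and BATF2 fell by 0.57. TAP2 read 9.54, 9.56 and 9.53 in siControl and 8.88, 8.73 and 8.72 in siRND3, with no overlap. The other pathway genes that passed, named after their values were seen, were IFI16 (0.42) and IFNGR1 (0.31), which were higher, and TRIM22 (-0.44), SOCS3 (-0.42), APOL6 (-0.40) and IFNAR1 (-0.38), which were lower. CXCL10, a chemokine induced by interferon, was well above background on 2 of 8 arrays only, siControl replicate 3 at 24 h (5.26) and siControl at 48 h (5.66). On the other 6 arrays it lay between 1.23 and 1.28 and was not well above background. Leaving out siControl replicate 1 or 3 reduced the pathway count from 17 to 6 (IFNA2, IL10RB, TICAM1, MYD88, HELZ2 and TAP2), leaving out siControl replicate 2 to 7 and leaving out siRND3 replicate 3 to 10.

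The differences were then set beside the promoter sequences. IFIT2, IRF7, OAS2, OASL and USP18, which passed at 24 h, had no promoter entry and are in neither set below. Over all genes tested 14.8% passed. Of the 22 tested genes with an ISRE core, 1 rose and 1 fell at 24 h, with a median difference of 0.02 (range -0.55 to 0.59). Of the 9 tested genes with a promoter but no core, 1 rose, with a median of 0.01 (range -0.31 to 0.60). At 48 h the medians were 0.28 and 0.31. IFI44 and IFIT3, whose sequences are printed above, both carry ISRE cores and moved in opposite directions.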

How the data were processed

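Total RNA of 8 samples was hybridised to human Agilent arrays with 1 colour (Cy3). The authors read the scans with Agilent Feature Extraction 10.7.3.1. The intensity deposited for each spot is linear and had been corrected for background within its array. The authors also deposited log2 values, for which the methods state quantile normalisation. These had the rank order of the spot median signal within each array and were used as an alternative.

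Here the processed intensity was taken to log2 and normalised by quantiles over the 8 arrays without control spots, outlier spots were dropped and spots of a probe were averaged, giving 42405 probes. A probe was well above background where at least 50% of its spots were so marked (68.3% to 70.7% of probes per array). The test took in probes so marked throughout siControl or siRND3 at 24 h. Of the probes 25422 were named through RefSeq accessions (GRCh38.p14). A gene was read from its brightest probe over the 6 arrays at 24 h.

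siRND3 was compared with siControl at 24 h with limma 3.58.1 in R 4.3.3. P-values were adjusted by Benjamini-Hochberg over the probes in the test, and 0.05 was the threshold. Both times were fitted in a model with 4 groups. The fit was tested on simulated data. Alternatives were scaling to the 75th percentile, normexp (offset 50, on the spot median), the authors' values, normalisation of the arrays at 24 h alone, filters, probe rules, SAM (the method the study names), array weights, a replicate block, all 8 arrays, and each array at 24 h left out. Deviations of arrays with the same replicate number correlated at 0.00, -0.01 and 0.13, and those with different numbers at between -0.13 and 0.11. These values cannot settle whether the numbers pair the samples, and the main fit used no pairing.

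Genes to be named by rule were RND3, members past the threshold at 24 h and up to 6 for each other test. The rule also took 7 markers of a response to interferon or double-stranded RNA. Of the pathway list it took DHX58, IFNB1, CXCL10 and up to 10 past the threshold. Values on every array are printed for some of these genes only. Another gene that this rule names is not reported here. The members and lists were chosen with earlier results of these data known.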

Additional observations from a re-analysis of the deposited data

Results flagged for a closer look

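The effect of knock-down on IFIT2 differed between the times. It was more positive at 48 h than at 24 h by 0.98 on the log2 scale (limma adjusted p 0.0490), in a test that takes the spread at 48 h from the arrays at 24 h. The 14 alternatives gave adjusted p between 0.0152 and 0.146, and 8 of them lost the call. The siRND3 array at 48 h (9.59) was above all 7 other arrays.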

How the results depend on the processing

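No called value of a named gene changed sign under an alternative. Signs of MX1, IFIH1 and STAT2 at 24 h, which were not called, did. So did uncalled signs of ISG15 and RND3 for the difference between the times. Those of EIF2AK2 for time in siControl cells and MX1 for time in siRND3 cells changed too. IFIT2 and IRF9 passed at 24 h under all 17 alternatives, and the count of changed members, 8, became 13 under normexp and 15 with all 8 arrays in the fit, and 2 to 6 when an array was left out. The member whose effect differed between the times, 1, became 2 under normexp, 0 with no filter on dim probes and also 0 when scaled to the 75th percentile, and 0 to 1 when an array was left out. For time in siControl cells the count, 1, became 2 under scaling to the 75th percentile, 5 under normexp, 3 with the authors' values, 3 with the filter on all 6 arrays, 3 with array weights and 0 without a filter, and 0 to 1 when an array was left out. For time in siRND3 cells it was 6 to 9 when an array was left out, and the pathway count, 17, was 6 to 13. The replicate numbers share no stated origin, and a replicate block left 3 members changed at 24 h (IFIT2, IFI44 and IRF9), 0 for the difference between the times, 0 for time in either treatment, and 6 pathway genes. The median of members at 24 h, 0.02, was 0.056 under scaling to the 75th percentile and -0.0082 to 0.057 when an array was left out. At 48 h, 0.26 became 0.22 under that scaling, 0.11 under normexp, 0.14 with the authors' values, 0.22 without a filter and 0.20 over the mean of all probes. Sense-strand ISRE cores were in 42.4% of members with a promoter, against 72.7% on both strands. The causes were not tested. Of the 41 members 39 were well above background throughout, and RSAD2 was limited by signal. Single arrays at 48 h carry no spread of their own.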
